A study of Mus musculus with 2 samples.

Results

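Genes of the integrated stress response and of serine synthesis were compared between cortical fiber cells and epithelial cells of the mouse lens. The members were 9 genes fixed by name, namely Atf4, Atf3, Ddit3, Ppp1r15a, Trib3, Sesn2, Asns, Phgdh and Psat1, and they were matched to array probes that carry a single platform gene symbol. Of these, 8 had a probe, 1 each, among 13769 genes named on the array. Values on both arrays were present for 7 of them. The members were chosen with values of this same contrast already known, so their differences are a description and carry no test. Trib3, a pseudokinase that restrains ATF4 and CHOP, has no expression value analysed here.

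The cortex sample held cortical fiber cells, and the epithelium sample held lens capsules with the epithelial cells attached to them. Both came from lenses of mice aged 13 days, 5 mice in all, which were kept in a balanced salt solution with calcium and magnesium and separated by forceps. The labels state no strain, genotype or sex, and do not say whether the mice were pooled. Poly(A) RNA of each sample was hybridized to 1 single-colour CodeLink array, so each difference below sets 1 array against 1 array, with no replicate and no p-value.

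The integrated stress response is the pathway by which kinases that sense different stresses phosphorylate the initiation factor eIF2. This slows translation of most mRNAs while the mRNA of the transcription factor ATF4, which has upstream open reading frames, is translated more. ATF4 and its partner factors switch on genes of amino acid synthesis and uptake, the transcription factor gene Ddit3 (CHOP), and Ppp1r15a (GADD34), which brings a phosphatase to eIF2 and so reverses the signal. Fiber cells make large amounts of crystallin and later lose their endoplasmic reticulum, the organelle whose stress the kinase PERK senses. The arrays measured RNA. ATF4 protein and eIF2 phosphorylation were not measured.

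Promoters of 4 members are shown because they hold, or lack, the letters that ATF4-type factors are known to bind. RefSeq promoter windows of GRCm38.p6, running from 250 bases before to 50 bases after each transcript start, were searched on both strands for TGATGNAA, the core of the C/EBP-ATF element, and for TGACGTCA, the cyclic AMP response element. The second reads the same on both strands and was counted once, and no member's window held both. The 120 bases before the start are printed 5′ to 3′ along the gene's strand, with motif letters in capitals. They lie on the minus strand at chr7:45526269-45526388 for Ppp1r15a, chr6:7693210-7693329 for Asns, chr1:191183334-191183453 for Atf3 and chr3:98339970-98340089 for Phgdh.
Ppp1r15a: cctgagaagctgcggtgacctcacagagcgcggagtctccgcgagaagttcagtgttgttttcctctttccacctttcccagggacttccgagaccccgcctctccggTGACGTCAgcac
Asns: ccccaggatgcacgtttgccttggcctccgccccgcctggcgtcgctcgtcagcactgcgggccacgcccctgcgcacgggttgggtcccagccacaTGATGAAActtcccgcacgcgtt
Atf3: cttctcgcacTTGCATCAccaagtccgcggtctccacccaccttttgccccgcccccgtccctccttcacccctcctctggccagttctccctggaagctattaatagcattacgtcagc
Phgdh: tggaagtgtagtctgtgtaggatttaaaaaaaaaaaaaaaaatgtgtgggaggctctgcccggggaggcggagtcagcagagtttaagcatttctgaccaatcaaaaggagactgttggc

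The C/EBP-ATF letters begin 23 bases before the start in Asns and, on the opposite strand, 110 bases before it in Atf3. In Trib3 they begin 14 bases after the start, outside the stretch that would be printed. The cyclic AMP response element begins 12 bases before the start in Ppp1r15a and was found in no other member. Neither motif was found in the windows of Atf4, Ddit3, Sesn2, Phgdh and Psat1, the last with 2 windows, which says only that these letters are not in these windows. Among all 32851 windows, 3.97% held the C/EBP-ATF letters and 1.79% held the cyclic AMP response element. A match describes the sequence and does not show that a factor binds there.

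Intensities were normalized by the authors and are in units in which each array's median was 0.998. Values were raised to a floor of 0.499 on each array, and differences are log2 cortex minus log2 epithelium. A gene was counted as higher in a sample when its signal there was at least 3-fold the other and reached the array's median. The dissection was checked on marker genes. Of 12 fiber markers, 11 were higher in cortex, and all 9 measured epithelial markers were higher in epithelium. Of 9 markers of ciliary body and pigment cells, 1 was higher in cortex and 5 were higher in epithelium, with a summed intensity of 13.9 in cortex and 148 in epithelium, and their part in the results below was not tested. Ptgds, which encodes a prostaglandin D synthase, gave 7.54 in cortex and 123 in epithelium of these sums, and the other 8 markers summed to 6.41 in cortex and 25.4 in epithelium. Of 8 vessel, blood and macrophage markers, 7 were at the floor on both arrays. The free-text labels mention fetal liver RNA, and of 10 liver and erythroid markers only Ahsg, a secreted glycoprotein made in liver, passed the limit, with 185 in cortex and 16.9 in epithelium. Another 5 of the 10 stayed under the limit and 4 did not clear either floor. Of those under it, Hba-a1 stood at 1.39 in cortex and 1.79 in epithelium, and Apoa2 at 0.708 in cortex and 0.888 in epithelium. Afp stood at 0.660 in cortex and 0.680 in epithelium. Fgb, at 0.506 in cortex and 0.235 in epithelium, and Hbb-y, at 0.634 and 0.186, were brighter in cortex. Whatever the size, 3 of the 10 were brighter in cortex and 3 in epithelium. In such bulk samples, fewer cells of a type and less RNA per cell cannot be told apart.

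The members did not share a direction. Ppp1r15a was the 1 member higher in cortex, Phgdh was the 1 member higher in epithelium, and the other 5 with both values stayed under 3-fold. Among all 13709 genes with both values, 9.41% were higher in cortex and 8.17% were higher in epithelium by the same rule. The members were chosen on this contrast, so nothing is read from their counts against those shares. The median log2 difference was 0.21 over the 7 members and 0.03 over all 8351 genes above the floor on both arrays, a group that holds all 7. Each member rests on a single probe. Disagreement among probes for the same gene is the only spread these arrays give, and its source was not tested. It holds no variation between dissections, labellings or mice, so it is not the error of a difference between the samples. Over 558 genes with several probes, its pooled SD on the log2 difference was 1.10 and its median SD was 0.59.

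**Figure D1:**
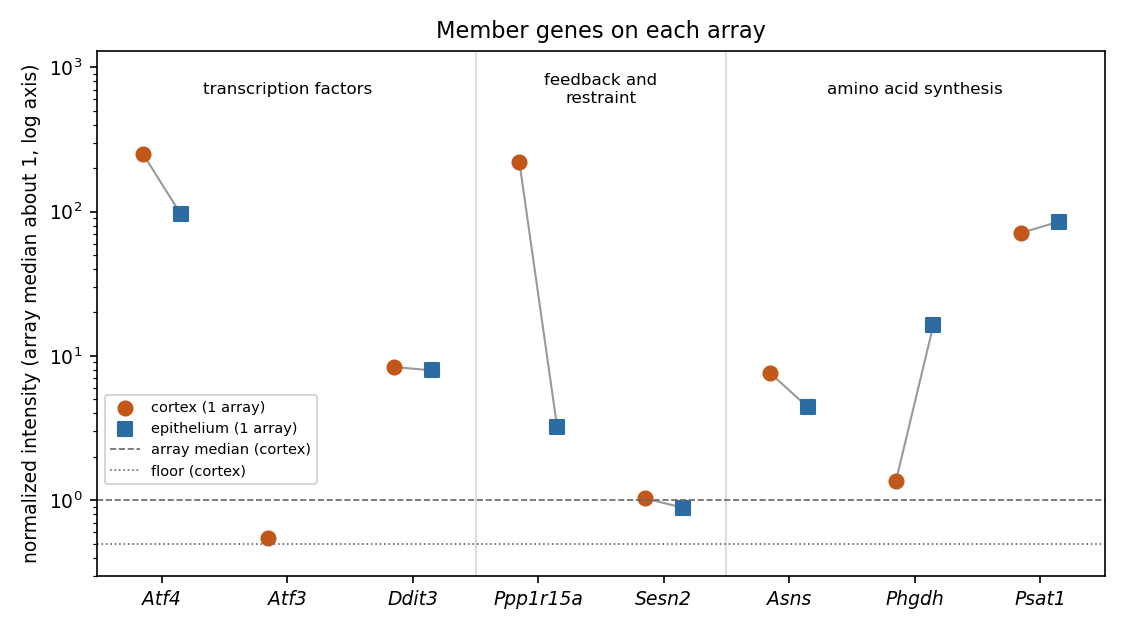
Normalized intensity (log axis) of the 8 members with a probe, with cortex as circles at left and epithelium as squares at right of each gene, 1 array each and no error bars. Ppp1r15a stands at 219 in cortex and 3.23 in epithelium, Phgdh runs the other way, and Atf3 has a cortex value alone.

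Ppp1r15a encodes GADD34, the stress-induced subunit that directs protein phosphatase 1 to eIF2. Its intensity was 219 in cortex against 3.23 in epithelium, a 67.8-fold higher signal in cortex (log2 difference 6.08). Both values lay above their array's median, so the size of the fold does not come from the floor. Of the 8351 genes that cleared both floors, 18 had a larger difference toward cortex. The difference was larger than the pooled SD between probes, which holds no variation between dissections or mice. The constitutive counterpart of GADD34, encoded by Ppp1r15b, stood at 8.25 in cortex against 3.93 in epithelium, a 2.10-fold difference under the limit. The genes nearest to Ppp1r15a in log2 intensity over the 2 arrays were Lgsn (log2 difference 6.35, distance 0.19), Slc46a2 (6.36, distance 0.39) and Unc5d (6.76, distance 0.51). With 2 arrays, such likeness is a description of a pair of values and no more.

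Sesn2 encodes sestrin 2, a stress-induced restraint on the growth kinase complex mTORC1. Its intensity was 1.03 in cortex and 0.889 in epithelium, a log2 difference of 0.21. Both values were near the array medians, and they did not differ beyond the spread between probes. Sesn1, also known as a p53 target, stood at 24.6 in cortex and 12.6 in epithelium, and Sesn3 stood at 69.0 in cortex and 37.1 in epithelium. Neither passed 3-fold, with log2 differences of 0.96 for Sesn1 and 0.90 for Sesn3. A second probe of Sesn3 differed by 0.80 on the log2 scale, while the Sesn3 difference became 0.19 after quantile normalization, 0.27 after loess on brightness and -0.03 once the differences were centred on the median of 66 ribosomal protein genes, called ribosomal centring below. Under that centring Sesn1 differed by 0.04.

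Atf4, the central transcription factor of the response, had an intensity of 250 in cortex and 96.3 in epithelium. The 2.60-fold difference (log2 1.38) was the largest among the members that stayed under the limit, and 1316 of the 8351 genes differed more toward cortex. At a 2-fold limit Atf4 would be counted as higher in cortex, as were 16.4% of all genes, while 15.3% were higher in epithelium at that limit. The Atf4 difference became 0.40 after quantile normalization, 0.43 after loess and 0.45 under ribosomal centring.

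Ddit3 encodes CHOP, a transcription factor of prolonged stress that acts with ATF4. Its intensity was 8.37 in cortex against 7.94 in epithelium, a 1.05-fold difference (log2 0.08). The difference was smaller than the spread between probes, and its sign turned after quantile normalization (-0.07) and under ribosomal centring (-0.85). Atf3, a stress-induced factor downstream of ATF4, stood at 0.548 in cortex, close to the floor, and its value in epithelium was missing. No difference can be given for Atf3. The large difference of Ppp1r15a thus stood beside a Ddit3 signal that was nearly equal on the 2 arrays.

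Phgdh encodes phosphoglycerate dehydrogenase, the first enzyme of serine synthesis from a glycolytic intermediate. Its intensity was 1.35 in cortex against 16.4 in epithelium, a 12.2-fold lower signal in cortex (log2 difference -3.61). Both values lay above their array's median, and 73 of the 8351 genes had a larger difference toward epithelium. The nearest genes in log2 intensity over the 2 arrays were Fam210b (log2 difference -3.63, distance 0.04), Mad2l2 (-3.50, distance 0.15) and Lamc1 (-3.47, distance 0.18).

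Psat1 encodes phosphoserine aminotransferase, the enzyme that follows Phgdh. Its intensity was 71.2 in cortex against 85.1 in epithelium, a 1.19-fold difference (log2 -0.26). It stayed under 3-fold in each scaling tried, but its difference became -1.11 after quantile normalization, -1.01 after loess and -1.18 under ribosomal centring. Asns encodes asparagine synthetase, a standard ATF4 target whose promoter, printed above, holds the C/EBP-ATF letters. Its intensity was 7.59 in cortex against 4.39 in epithelium, a 1.73-fold difference (log2 0.79), and its sign turned to -0.14 under ribosomal centring. Of the 3 synthesis enzymes, Phgdh alone passed the limit, and the other 2 pointed in opposite directions.

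**Figure D2:**
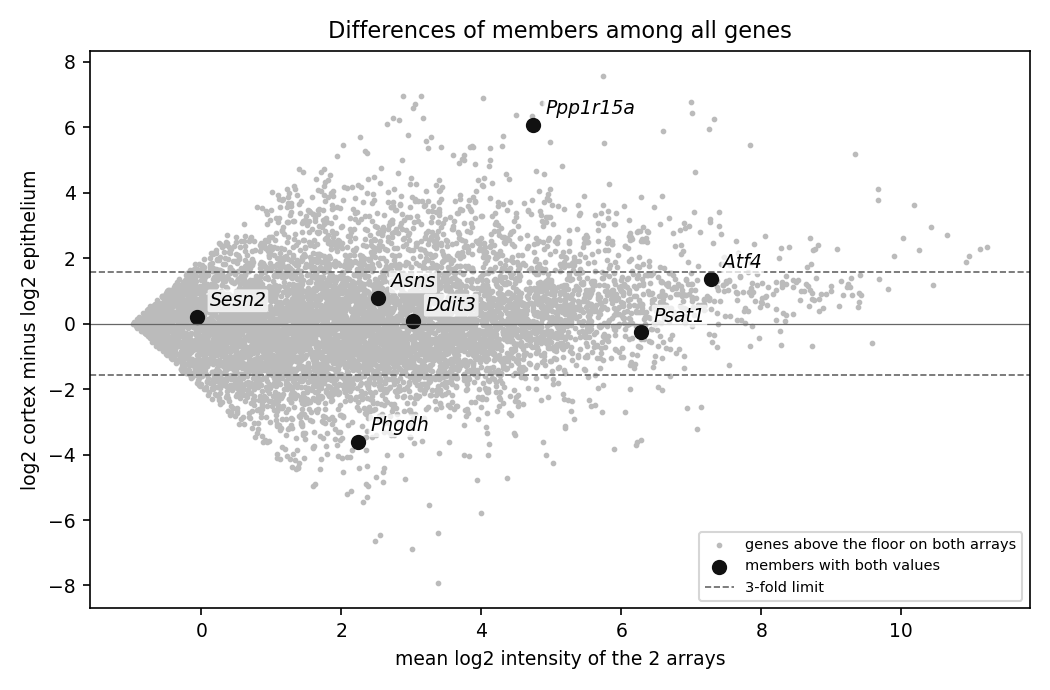
Log2 cortex minus log2 epithelium against mean log2 intensity, with 8351 genes above the floor on both arrays in grey and the 7 members with both values in black. Ppp1r15a lies near the upper edge and Phgdh near the lower edge of the cloud, while the other 5 members lie between the dashed 3-fold lines.

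Ppp1r15a and Phgdh kept their side of the limit under each scaling tried. Over the deposited scaling and 8 alternatives of scaling, floor and probe, the log2 difference of Ppp1r15a ran between 5.16 and 6.08. That of Phgdh ran between -4.53 and -3.58. With 1 probe each and values above both medians, neither could move under the floor and probe alternatives, so these ranges come from the scalings. Sesn2 turned to -0.71 under ribosomal centring. That centring lowered by 0.93 on the log2 scale the difference of every gene above the floor on at least 1 array.

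**Figure D3:**
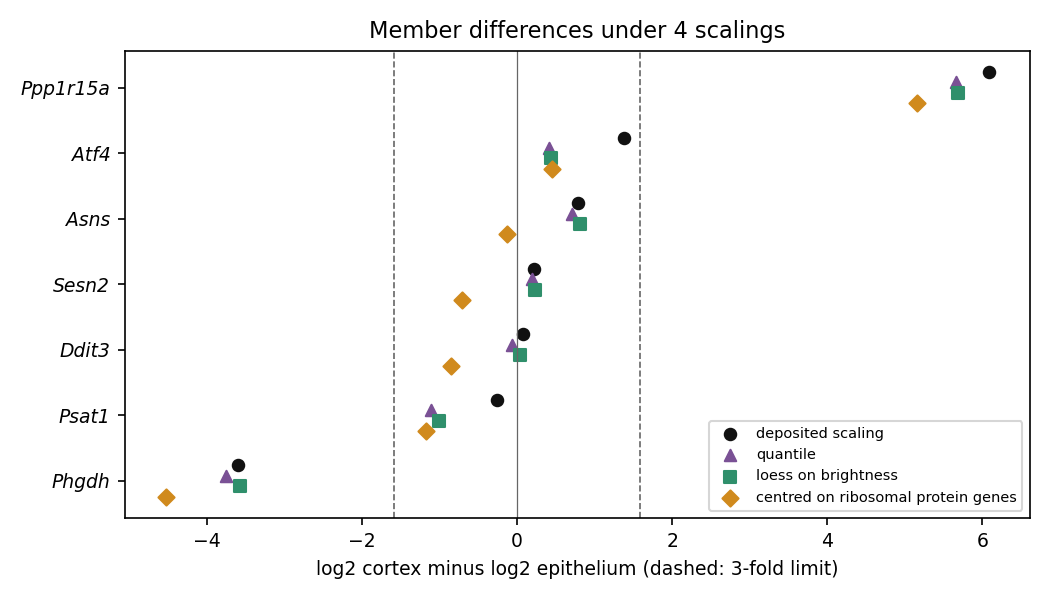
Log2 cortex minus log2 epithelium of the 7 members with both values under 4 scalings, 1 symbol for each, with dashed lines at 3-fold. Ppp1r15a and Phgdh stay outside the lines under all 4, and Atf4 lies at 1.38 with the deposited scaling and between 0.40 and 0.45 under the others.

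The steps upstream of Atf4 were examined in a list of eIF2 kinases, eIF2 and its exchange factor eIF2B. Of 13 measured genes, 1 was higher in cortex and 1 was higher in epithelium. Over all genes the shares were 9.41% in cortex and 8.17% in epithelium, and nothing particular to the list is read from these counts. The list's median log2 difference was -0.15, against 0.00 over all genes. Eif2ak3 encodes PERK, the kinase of endoplasmic reticulum stress, and stood at 0.797 in cortex and 4.57 in epithelium, 5.73-fold lower in cortex, with the cortex value between the floor and the array's median. Eif2ak4 (GCN2, which senses uncharged tRNA) stood at 1.17 in cortex against 2.46 in epithelium, a 2.10-fold difference under the limit. The kinase genes Eif2ak1 (HRI, known for its control by heme) and Eif2ak2 (PKR, activated by double-stranded RNA) gave little signal, with Eif2ak1 at the floor on both arrays and Eif2ak2 at 0.334 in cortex and 0.554 in epithelium. Eif2b2, a subunit of eIF2B, stood at 555 in cortex against 102 in epithelium, a 5.43-fold difference. Its log2 difference of 2.44 fell under the limit at 1.46 after quantile normalization, 1.36 after loess and 1.52 under ribosomal centring. Eif2s2, the beta subunit of eIF2, was 2.51-fold brighter in cortex and under the limit, and its log2 difference of 1.33 became 0.43 after quantile normalization, 0.46 after loess and 0.40 under ribosomal centring. Eif2s1, which encodes the phosphorylated subunit, was not analysed here.

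Other genes linked to ATF4 and CHOP passed the limit in both directions. Of 17 measured, 4 were higher in cortex and 1 was higher in epithelium, with a median of 0.35. The shares over all genes, for this list and the p53 list below, were 9.41% in cortex and 8.17% in epithelium. The stress and growth arrest genes Gadd45b and Gadd45a had log2 differences of 4.61 and 4.22. The pro-apoptotic gene Bbc3 (PUMA) had a log2 difference of 2.67. Atf5, a factor related to ATF4 and likewise controlled at translation, stood at 34.1 in cortex and 7.84 in epithelium, and its log2 difference of 2.12 became 1.20, under the limit, under ribosomal centring. Jdp2, a repressor of the AP-1 and ATF family, went the other way, with 1.33 in cortex against 28.3 in epithelium, a 21.3-fold difference. This list shares 4 genes with the p53 list, 23.5% of either, among them Gadd45a and Bbc3. Of 17 p53 targets, 6 were higher in cortex and 1 was higher in epithelium, with a median of 0.90, and the part of that pathway in the Ppp1r15a value was not tested. Ccng1, which encodes cyclin G1, stood at 80.4 in cortex and 2.25 in epithelium. Fas and Pmaip1 also passed toward cortex. The log2 difference of Fas was 3.18. That of Pmaip1 was at least 4.13, a bound because its epithelium signal lay under the floor. Phlda3 was the 1 p53 target higher in epithelium, at 0.711 in cortex and 2.71 in epithelium, and Cdkn1a did not clear either floor. Whatever the size, 11 of the 17 p53 targets were brighter in cortex and 4 in epithelium. The same share over all genes was not computed, so nothing particular to p53 targets is read from these 2 counts.

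Ppp1r15a also responds quickly to many stimuli, and immediate early genes were therefore listed beside it. Of 21 measured, 8 were at the floor on both arrays, 1 was higher in cortex and 1 was higher in epithelium, with a median of 0.00. Another 11 stayed under the limit. Of all 13709 genes, 3363 were at the floor on both arrays, 9.41% were higher in cortex and 8.17% were higher in epithelium. Nothing particular to the list is read from these counts. Egr1, Junb, Myc and Nr4a1 were among the list's genes at the floor. Fosb, Jun and Dusp1 cleared it on both arrays, with log2 differences of 0.24, -0.17 and 0.75. The summed intensity of the 21 genes, floor values included, was 68.1 in cortex and 94.0 in epithelium. Jund alone gave 31.8 in cortex and 65.1 in epithelium, and the other 20 genes summed to 36.3 in cortex and 28.9 in epithelium, so the order of the sums turned without it. Their part in the Ppp1r15a value was not tested. Zfp36, which encodes an RNA-binding protein that destabilizes mRNAs, was the 1 higher in cortex, at 8.29 in cortex and 1.57 in epithelium, and fell under the limit under ribosomal centring (log2 1.48). Klf4 was the 1 higher in epithelium, with at least a 3.28-fold difference. Fos was not analysed here.

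The rest of the serine, glycine and one-carbon pathway was represented by 14 measured genes. None of them was higher in cortex and 2 were higher in epithelium, and the median was 0.00. Over all genes the shares were 9.41% in cortex and 8.17% in epithelium, and nothing particular to the list is read from these counts. Psph, the last enzyme of serine synthesis, stood at 9.86 in cortex and 14.8 in epithelium (log2 difference -0.59). Thus, of the 3 enzymes from glycolysis to serine, the first was 12.2-fold lower in cortex and the next 2 differed by less than 3-fold. Shmt2, the mitochondrial enzyme that turns serine into glycine, was 4.11-fold lower in cortex, at 3.08 in cortex and 12.7 in epithelium. Its cytosolic counterpart Shmt1 was at the floor on both arrays. Mthfd2, a mitochondrial folate enzyme and known ATF4 target, stood at 18.2 in cortex and 7.07 in epithelium. It was 2.57-fold brighter in cortex and under the limit. The Mthfd2 log2 difference of 1.36 became 1.14 after quantile normalization, 1.24 after loess and 0.44 under ribosomal centring. Aldh1l1, a cytosolic folate enzyme, was 2.81-fold brighter in cortex and also under it by its brighter probe, while its second probe did not clear either floor. The mean over both probes gave a log2 difference of 0.74 for Aldh1l1, and ribosomal centring gave 0.56. Cbs, which joins serine to homocysteine, was at least 3.96-fold lower in cortex by its brighter probe, while a second probe differed by -0.41 and did not pass.

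Other amino acid enzymes and amino acid transporters were higher in epithelium where they passed. Of 14 such enzymes, none was higher in cortex and 4 were higher in epithelium, and their median was -0.45. The shares over all genes, for these enzymes and the transporters below, were 9.41% in cortex and 8.17% in epithelium. Glul (glutamine synthetase) stood at 1.17 in cortex and 16.9 in epithelium, and Oat (ornithine aminotransferase) stood at 6.91 in cortex and 70.6 in epithelium. Asl, of arginine synthesis, was 4.65-fold lower in cortex, with a second probe at a log2 difference of -1.12, and Prodh, of proline breakdown, was 3.32-fold lower with a cortex value of 0.631 near the floor. Of 14 transporters, none was higher in cortex and 4 were higher in epithelium, and their median was -0.65. The 4 were Slc38a3 (10.6-fold), Slc7a2 (5.21-fold), Slc3a2 (5.09-fold) and Slc38a2 (4.75-fold). Slc3a2, the heavy chain shared by several transporters, stood at 12.8 in cortex and 65.0 in epithelium, and Slc38a2, a glutamine and alanine carrier known as an ATF4 target, stood at 10.3 in cortex and 49.2 in epithelium. Slc7a5, a light chain that pairs with Slc3a2, did not clear either floor, and Slc7a11 was not analysed here.

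Aminoacyl-tRNA synthetase genes, many of which are ATF4 targets, were listed as well. Of 15 measured, none was higher in cortex, 1 was higher in epithelium, 13 stayed under the limit and 1 was at the floor on both arrays, where 9.41% of all genes were higher in cortex and 8.17% were higher in epithelium. Their median was 0.00, and nothing particular to the list is read from these counts. Tars (threonyl-tRNA synthetase) was the 1 that passed, at 0.942 in cortex and 3.35 in epithelium. Vars had a log2 difference of -1.43, Aars -1.20 and Lars 1.01, none past 3-fold.

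Genes of the endoplasmic reticulum stress response had a median of -0.70. Of 22 measured, 16 were brighter in epithelium, but the limit was passed by 3 in that direction and by 2 toward cortex. Among all genes, 8.17% were higher in epithelium and 9.41% in cortex. The share of all genes brighter in epithelium at any size was not computed, and the median over all genes was 0.00. Nothing particular to the list is read from its counts, at any size or past the limit. Sdf2l1, a chaperone partner in the endoplasmic reticulum, stood at 0.524 in cortex, near the floor, and 6.48 in epithelium. Creld2 was 3.43-fold and Ero1a, an oxidase of disulfide formation, 3.40-fold lower in cortex. Hspa5, which encodes the main chaperone BiP, stood at 15.2 in cortex against 39.8 in epithelium, a 2.62-fold difference under the limit. Sel1l, a part of the degradation machinery, passed toward cortex with a log2 difference of 2.89, but its second probe gave -2.48, higher in epithelium. Ern1, which encodes the stress sensor IRE1, passed toward cortex at 1.70 in cortex and 0.539 in epithelium, the epithelium value near the floor. The count in epithelium was 6 after quantile normalization or loess and 11 under ribosomal centring, so the list's count depended on the scaling. Over all 13709 genes, that count was 1120 with the deposited scaling, 1300 after quantile normalization, 1175 after loess and 2771 under ribosomal centring. Ppp1r15b, Atf5, Hspa5, Ern1, Slc7a5, Phlda3, Cdkn1a, Fosb, Jun, Dusp1 and the immediate early genes at the floor were named after their values were seen.

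**Figure D4:**
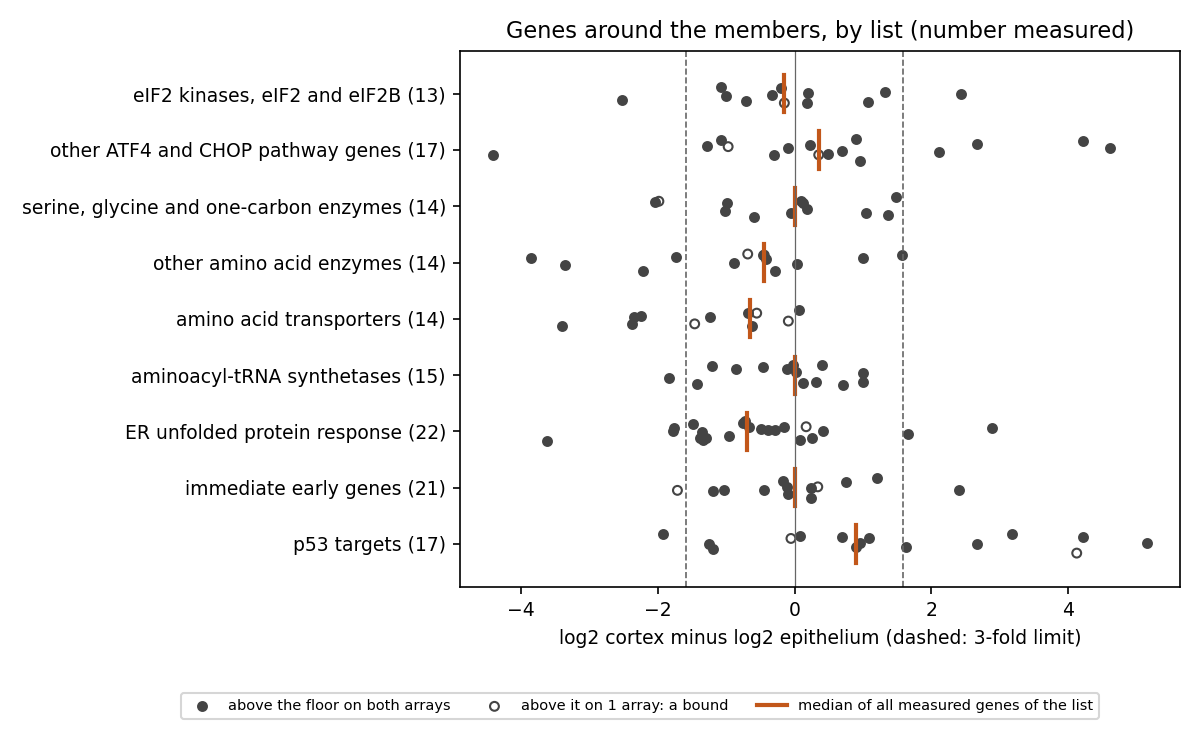
Log2 cortex minus log2 epithelium of the genes in 9 lists around the members, 1 point per gene, filled where both arrays were above the floor and open where the value is a bound; genes at the floor on both arrays are not drawn but count in the orange medians as 0. The medians run from -0.70 for the endoplasmic reticulum list to 0.90 for the p53 list, with dashed lines at 3-fold.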

How the data were processed

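Per the labels, biotin-labelled RNA was hybridized to CodeLink mouse arrays, stained with a Cy5 conjugate and read with the CodeLink software, steps known from the same free text that mentions fetal liver. The deposited table holds 1 normalized intensity per probe for 19819 probes on each of 2 arrays. No label or header states how the authors subtracted background or scaled the arrays. Values run from below 0 to 5411, so the scale was taken as linear. Values were missing for 87 probes in cortex and 97 in epithelium. Platform annotation gave 1 symbol to 15120 probes, several to 38 and none to 4661, and 15064 matched RefSeq genes (GRCm38.p6) by Entrez identifier.

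A floor at 0.5 of each array's median was applied and log2 taken. The probe with the highest mean stood for a gene. No test was possible with 1 array per group, and the number of arrays limits precision. Members and lists were chosen with earlier results of these data known. Named genes are all members, up to 4 genes per list with the largest absolute difference, and the eIF2 kinases, Psph, Shmt1, Shmt2, Mthfd2, Slc3a2, Sesn1 and Sesn3. Alternatives were quantile normalization, loess (span 0.3), centring on 66 ribosomal protein genes, other floors, probe summaries, fold limits and brightness filters. Python 3.11.15, numpy 2.4.6, pandas 2.3.3, statsmodels 0.14.6 and matplotlib 3.10.9 were used.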

Additional observations from a re-analysis of the deposited data

How the results depend on the processing

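Ppp1r15a in cortex and Phgdh in epithelium passed the limit under each of the 12 alternatives tried, but many of these could not change either call. Both genes have 1 probe and values above both medians, so the floor and probe settings left them unchanged. The 2-fold limit only loosened the rule. Dropping the brightness filter changed no call, because 3-fold the floor already lies above the array's median. The settings that could have removed a call were quantile normalization, loess, ribosomal centring, the 5-fold limit and the 4-median filter. The member count in cortex was 2 at a 2-fold limit, where Atf4 joined, and was otherwise 1. Of 56 member differences recomputed, 11 moved by more than the median SD between probes, none of them changing the side of a passing member. All 7 members moved under ribosomal centring, which lowers each by 0.93. Atf4 and Psat1 also moved after quantile normalization and after loess. The rest of the 56 include the floor and probe settings. With 1 probe per member, those could shift only Sesn2, by the floor, so the 56 overstate how many differences were free to move. The counts of the lists stayed within 1.5 times in 167 of 216 comparisons. The 167 likewise overstate how many counts were free to move. The dropped brightness filter left every list count as it was. Transporters, tRNA synthetases, the serine list and other amino acid enzymes had 0 genes higher in cortex with the deposited scaling, and a count of 0 cannot fall under a stricter rule. Under ribosomal centring, 2771 of all 13709 genes were higher in epithelium and 585 were higher in cortex. The list counts in epithelium then became 11 for the endoplasmic reticulum list and 7 for transporters. They became 4 each for tRNA synthetases, the eIF2 list and the serine list, and 3 each for immediate early, ATF4 and p53 genes. The counts in cortex under this centring became 1 for the endoplasmic reticulum list and 0 for the eIF2 and immediate early lists. After quantile normalization, and likewise after loess, 6 endoplasmic reticulum and 2 immediate early genes were higher in epithelium and 0 genes of the eIF2 list were higher in cortex. With a floor at the array median the endoplasmic reticulum list had 1 in cortex, and the counts in epithelium were 0 for immediate early and p53 genes and 1 for the serine list. With the mean over probes, or the dimmest probe, the endoplasmic reticulum list had 1 in cortex and the serine list 1 in epithelium, and with the dimmest probe 5 endoplasmic reticulum genes were higher in epithelium and Sel1l turned to -2.48. At a 2-fold limit the counts in epithelium were 8 for the endoplasmic reticulum list and 3 each for tRNA synthetases, the eIF2, immediate early, ATF4 and p53 lists, and the counts in cortex were 3 for the eIF2 and serine lists and 2 for tRNA synthetases, immediate early genes and other amino acid enzymes. At a 5-fold limit the endoplasmic reticulum list had 1 in each direction, other amino acid enzymes had 2 in epithelium, and tRNA synthetases, immediate early genes, p53 genes and the serine list had 0 there. Requiring 4 medians on the brighter array gave 1 in cortex for the endoplasmic reticulum list, 1 in epithelium for the serine list, and 0 in epithelium for tRNA synthetases, immediate early and p53 genes. The cause of these moves was not tested beyond what each setting does by construction. The share of calls in cortex was 53.5% with the deposited scaling, 46.6% after quantile normalization and 17.4% under ribosomal centring. No paired analysis was possible because each group has 1 array. Signal near or under the floor limits Atf3, Eif2ak1, Eif2ak2 and Shmt1, and low signal near the array medians limits Sesn2.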

Other observations

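The C/EBP-ATF letters found in the windows of Asns and Atf3 were set against the calls of all genes with a RefSeq promoter window. Of 378 measured genes with these letters in a window, 10.3% were higher in cortex and 8.99% were higher in epithelium. Of 10604 genes without them, 9.29% were higher in cortex and 8.48% were higher in epithelium. For the cyclic AMP response element, found in Ppp1r15a, 6.90% of 319 genes with it and 9.40% of 10663 genes without it were higher in cortex, and 9.09% of those with it and 8.48% of those without it were higher in epithelium. These shares are descriptions with no test, and genes of 1 array are not independent replicates.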
